A study of Mus musculus with 15 samples.

Results

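Wild-type mice that drank antibiotics before a liver carcinogen and a liver toxin were compared with wild-type mice given the carcinogen and toxin alone. The comparison used 8 of the 15 liver arrays in the series, 1 array per sample: 4 labelled as given antibiotics (the antibiotic group) against 4 labelled as not (treated wild type). All of these mice were male C3H/HeOuJ, a strain with functional Tlr4. Both groups were injected with diethylnitrosamine (DEN), a carcinogen that alkylates DNA in hepatocytes, at 100 mg/kg when 12 weeks old. They then received carbon tetrachloride (CCl4), which kills the hepatocytes whose cytochrome P450 enzymes activate it, at 0.50 ml/kg when 13 and again when 15 weeks old. Livers were taken at an age of 15 weeks, 48 hours after the second CCl4 dose. The antibiotic group had been given ampicillin, neomycin and metronidazole, each at 1 g/l, together with vancomycin at 500 mg/l in the water for 2 weeks beginning when the mice were 10 weeks old. By the labels this course had ended when CCl4 was first given. No measure of gut bacteria or of lipopolysaccharide was analysed here. Reference values came from 3 arrays of untreated C3H/HeOuJ mice and from 4 arrays of C3H/HeJ mice carrying Tlr4P712H, a Tlr4 point mutation that blocks signalling, given DEN and CCl4 without antibiotics (treated mutant). Both reference groups were also 15 weeks old. The mutants received DEN and CCl4 at the same doses and ages, and their livers were likewise taken 48 hours after the last CCl4 dose. The labels do not say whether arrays came from separate mice, so each p-value measures the spread between these samples, which may be partly technical.

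Blood from the gut reaches the liver through the portal vein and carries lipopolysaccharide shed by gut bacteria. Kupffer cells, the liver's resident macrophages, recognise it through Cd14 and Tlr4 and answer with cytokines and growth factors. In a liver injured by CCl4, surviving hepatocytes enter the cell cycle, stellate cells become contractile and lay down collagen, and macrophages clear debris. Hepatocytes also set their lipid metabolism through nuclear receptors and sterol sensors. PPARalpha switches on fatty acid oxidation, and SREBP2, held back by Insig proteins when sterols are plentiful, switches on cholesterol synthesis. Such livers are used to ask how gut bacteria and Tlr4 contribute to liver cancer.

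Levels are log2 array values, where a step of 1 is a doubling and values under 4 are close to background. Between 34.6% and 36.7% of the probe sets reached 4 on each array, and 9482 of the 18193 named genes on the array met the detection rule, a level of 4 on at least 3 of the 15 arrays, and entered the tests. Correlations over these genes ran from 0.977 to 0.988 within the antibiotic group, from 0.981 to 0.993 within treated wild type and from 0.954 to 0.985 between them. Array medians lay between 7.84 and 7.87 with antibiotics and between 7.87 and 7.91 without. The liver's own markers were high on every array of both groups: Alb, serum albumin, was at 14.81, 14.54, 14.67 and 14.69 in treated wild type and at 14.74, 14.64, 14.78 and 14.78 in the antibiotic group. Tlr4, the cytokines Tnf, Il1b and Il6, the chemokine Ccl2 and the growth factor Ereg stayed under the detection limit on all 15 arrays and were not compared.

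With antibiotics, 49 of 53 mitosis genes, 18 of 24 macrophage markers, 17 of 35 stellate cell and matrix genes and 12 of 22 cholesterol synthesis genes fell. In the other direction, 18 of 35 fatty acid oxidation genes, 7 of 23 immediate early genes and G6pc, of glucose-6-phosphatase, rose. Differences were tested with limma at a Benjamini-Hochberg adjusted p under 0.05, and a gene is said to have risen, fallen or been called when it passed. In all, 1323 of 9482 genes passed, 469 higher (4.95%) and 854 lower (9.01%) with antibiotics, while the median difference over all genes was -0.03. Centring every array on its median left 1343 genes called but shifted the balance to 613 higher and 730 lower, and quantile normalisation to 593 and 766. A larger share of the fallen genes passed 2-fold: 323 of them fell by at least 2-fold, 3.41% of genes tested, against 85 that rose by as much (0.896%). The antibiotic arrays and the treated arrays did not overlap for 612 genes in the higher direction (6.45%) and 1100 in the lower one (11.6%). Without antibiotic replicate 1 the count of called genes fell to 820, and without treated replicate 4 to 838. Of the genes tested, 217 met the detection rule only when the treated arrays were counted, so that a high level there had let them in, and 108 of these were called lower. A further 98 met it only when the antibiotic arrays were counted, and 11 of these were called higher. In bulk liver RNA, fewer cells of a type and less RNA per cell cannot be told apart. Differences below are log2 values, antibiotic group minus treated wild type, ± SE, and arrays left out are given by group and replicate number. Where a group lay under 4, a fold is a lower bound with its values under 4 set to 4.

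**Figure D1:**
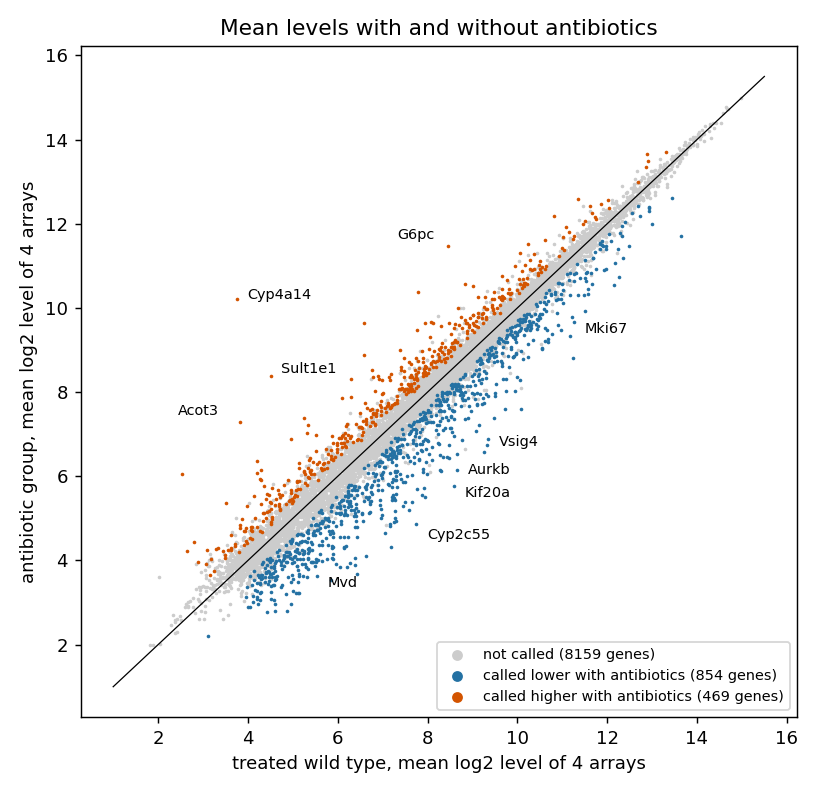
Mean log2 level of each of the 9482 genes tested in treated wild type (horizontal axis, 4 arrays) and in the antibiotic group (vertical axis, 4 arrays), with the line of equal levels. The 469 genes called higher with antibiotics are orange, the 854 called lower are blue and the other 8159 are grey; Cyp4a14 stands farthest above the line.

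The largest rise was that of Cyp4a14, a hydroxylase that attacks the far end of fatty acids and a classical PPARalpha target. Its levels were 2.38, 5.89, 3.97 and 2.78 in treated wild type and 11.02, 8.81, 10.15 and 10.85 in the antibiotic group. Every antibiotic array was far above every treated array, 3 of the 4 treated arrays being under 4, and the rise was at least 53.2-fold (6.45 ± 0.73, adjusted p = 0.000401). It was under 4 in untreated livers (2.23, 2.07 and 2.36), and the treated mutant's levels of 6.35, 5.31, 7.14 and 4.27 lay below the antibiotic arrays and overlapped the treated ones. Acot3, a peroxisomal acyl-CoA thioesterase, was at 2.91, 4.17, 5.05 and 3.14 without antibiotics and 8.03, 5.73, 7.80 and 7.60 with them (3.47 ± 0.70, adjusted p = 0.00639, at least 7.91-fold higher). Antibiotic replicate 2 had the lowest level of its group for both genes, and the groups still did not overlap. Cyp4a and Acot genes have close copies, so cross-hybridisation can blur which member a probe set measures.

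Among called genes whose groups did not overlap, other large rises included genes of steroid, lipid and glucose handling. Sult1e1, the sulfotransferase that inactivates oestrogens, was at 6.76, 4.15, 2.96 and 4.15 in treated wild type and at 9.02, 7.16, 8.23 and 9.10 with antibiotics (3.87 ± 0.64, adjusted p = 0.00256). Mfsd2a, a transporter of lysophosphatidylcholine, rose by 3.06 ± 0.77 (adjusted p = 0.0179). G6pc, the catalytic subunit of glucose-6-phosphatase that releases glucose from the liver, was at 9.16, 7.49, 7.62 and 9.51 without and 11.29, 12.09, 10.74 and 11.79 with antibiotics (3.03 ± 0.60, adjusted p = 0.00602), so all 4 antibiotic arrays exceeded all treated ones, and also the untreated ones (9.56, 10.35 and 9.91). Nr0b2 (also known as SHP), a corepressor that damps bile acid synthesis, was at 6.43, 6.44, 7.64 and 5.80 and 8.51, 8.61, 8.78 and 9.60 in the same order (2.30 ± 0.36, adjusted p = 0.00204). The remaining genes of the 12 highest without overlap were Sprr1a (2.61), which encodes a small proline-rich protein of stressed epithelia, the stress genes Gadd45g (2.14) and Ier3 (2.01), the pseudokinase gene Nrbp2 (1.92), the flavin monooxygenase Fmo2 (1.88) and the solute carrier Slc45a3 (1.87). Mfsd2a was not called without treated 4 or antibiotic 1 (adjusted p up to 0.0554).

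Genes of fatty acid oxidation rose in part. Of 35 measured genes of fatty acid oxidation and PPARalpha targets, 18 were called higher and 0 lower, against 4.95% of all genes higher and 9.01% lower, and the list's median difference was 0.55. The thioesterase Acot2 rose by 1.70 ± 0.43 (adjusted p = 0.0176), and Crat, which moves acetyl groups onto carnitine, by 1.34 ± 0.28, adjusted p = 0.00774. Crat was at 6.76, 8.06, 7.75 and 7.34 without antibiotics and at 8.88, 8.30, 8.89 and 9.19 with them, so the groups did not overlap. The other called members span the pathway and were named here after their values were seen. Entry into mitochondria was represented by Slc25a20 (0.55) and Cpt2 (0.61), and the mitochondrial spiral by Acadvl (0.54), Acadm (0.33), Acads (0.61), Hadha (0.77) and Eci1 (0.89). Peroxisomal oxidation was represented by Ehhadh (1.22), Acaa1b (0.78), Acot4 (1.14), Ech1 (0.64), Eci2 (0.81) and Pex11a (1.03). Angptl4, a secreted inhibitor of lipoprotein lipase, rose by 1.05. Acot2 was not called without treated 4 or antibiotic 1 (adjusted p up to 0.054), nor was Slc25a20 without treated 1 or 4, or antibiotic 1 (up to 0.0684). Acadm was not called without treated 1, 2 or 4, or antibiotic 1, 3 or 4 (adjusted p up to 0.0839), nor were Hadha, Ehhadh, Acaa1b, Acot4 and Ech1 without treated 1 or 4, or antibiotic 1, 3 or 4 (up to 0.108). Pex11a was not called without treated 4 or antibiotic 4 (adjusted p up to 0.0572), nor was Angptl4 without treated 4 (0.051). Acadm, Hadha, Ehhadh, Acot4 and Ech1 were not called in a fit of the 8 arrays alone (adjusted p up to 0.0943), nor was Ech1 without the detection rule (0.0566).

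Not all of the pathway passed. The gate-keeping carnitine transferase Cpt1a differed by 0.34 (adjusted p = 0.531), the receptor gene Ppara by 0.51 (0.0984) and Acot1 by 1.59 (0.0636). Cyp4a12a, a male-biased relative of Cyp4a14, was lower by value (-1.39, adjusted p = 0.141). The mean level of the 35 genes was 9.47, 10.34, 10.38 and 9.89 on the treated arrays and 10.85, 10.63, 10.96 and 10.97 on the antibiotic arrays. Treated replicate 1 was the lowest of all, and the 4 antibiotic arrays stood closer together than the 4 treated ones. Without treated replicate 4 the count of members called higher was 8, without antibiotic replicate 1 it was 10, and without treated replicate 1 or antibiotic replicate 4 it was 11.

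**Figure D2:**
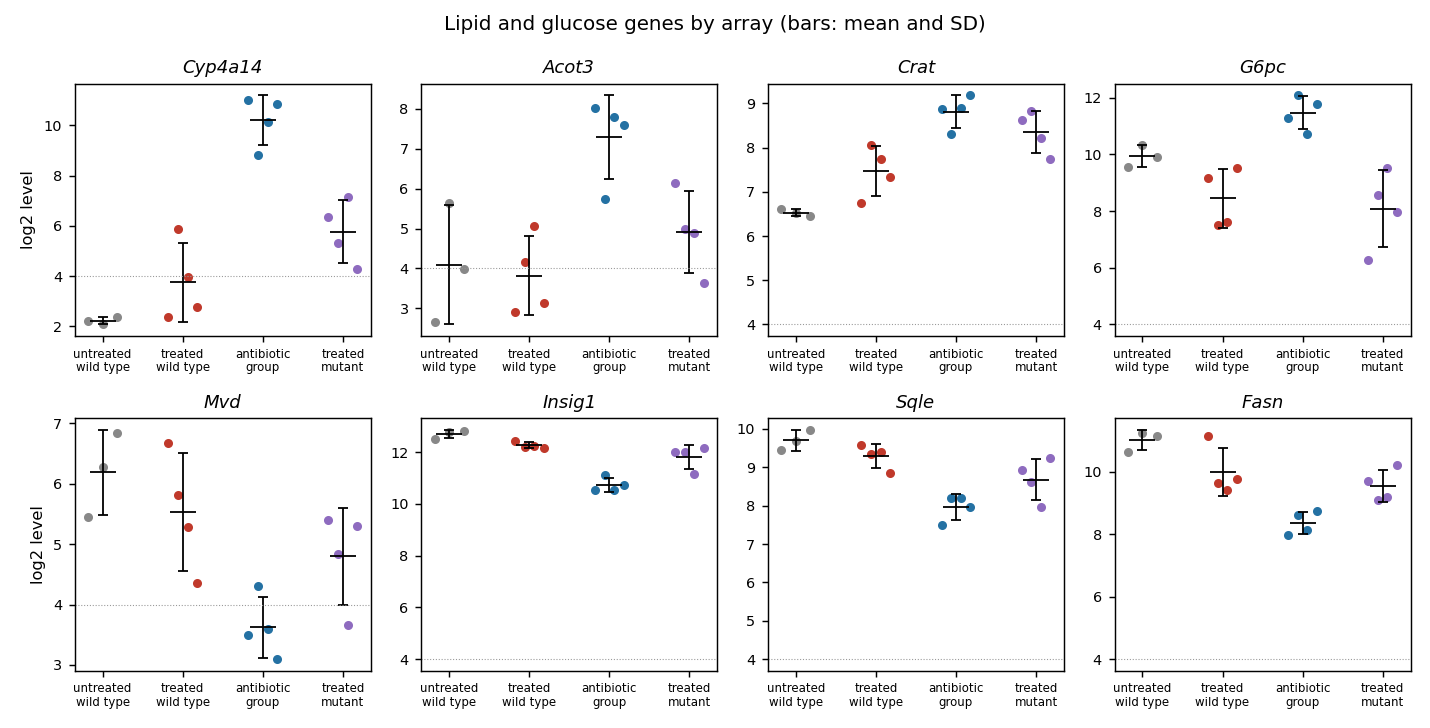
Log2 levels of 4 genes that rose (Cyp4a14, Acot3, Crat, G6pc) and 4 that fell (Mvd, Insig1, Sqle, Fasn) with antibiotics, on each array of the 4 groups; bars give the mean and SD and the dotted line marks 4. In each panel the 4 antibiotic points lie apart from the 4 treated wild-type points, above them for Cyp4a14 and below them for Insig1.

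Genes of cholesterol synthesis fell in part. Of 22 measured genes of the pathway and its sterol sensors, 12 were called lower and 0 higher, against 9.01% and 4.95% of all genes. The median difference was -0.81, and all 22 differences were below 0, where 46.6% of all genes differed upwards. Promoters of this pathway bind SREBP2 together with the CCAAT-binding factor NF-Y, and the windows of the called members with the largest differences that hold CCAAT are shown for that reason. Each is the 250 bases before the RefSeq start (assembly GRCm38.p6, 5′ to 3′ on the gene's strand), with CCAAT or its reverse complement ATTGG in capitals.
Mvd chr8:122443423-122443672 (minus strand): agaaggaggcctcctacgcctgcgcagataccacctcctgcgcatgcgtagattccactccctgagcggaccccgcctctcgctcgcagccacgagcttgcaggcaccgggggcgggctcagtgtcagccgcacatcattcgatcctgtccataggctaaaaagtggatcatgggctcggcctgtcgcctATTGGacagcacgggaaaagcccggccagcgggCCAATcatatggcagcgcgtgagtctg
Insig1 chr5:28071162-28071411 (plus strand): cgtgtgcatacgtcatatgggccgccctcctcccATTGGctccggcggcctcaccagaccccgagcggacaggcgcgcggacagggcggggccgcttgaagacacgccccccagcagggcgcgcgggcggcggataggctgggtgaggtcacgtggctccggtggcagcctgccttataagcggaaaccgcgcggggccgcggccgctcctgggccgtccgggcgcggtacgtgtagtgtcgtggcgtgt
Msmo1 chr8:64733579-64733828 (minus strand): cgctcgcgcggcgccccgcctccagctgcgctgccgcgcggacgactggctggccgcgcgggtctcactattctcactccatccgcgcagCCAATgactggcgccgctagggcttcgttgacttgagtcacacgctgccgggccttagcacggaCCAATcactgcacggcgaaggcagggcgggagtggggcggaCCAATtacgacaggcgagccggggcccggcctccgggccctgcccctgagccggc

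The letters CCAAT stood on either strand in 17 of 24 windows of the cholesterol genes (70.8%, 18 of 22 genes matched), in 35.6% of 9894 windows of genes tested and in 33.8% of all 32851. Such a match describes the sequence only. The fatty acid oxidation genes held it in 14 of 31 windows (45.2%).

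Insig1, the sterol-sensing anchor of the SREBP complex and itself an SREBP target, had the smallest adjusted p of the list. It was at 12.43, 12.22, 12.23 and 12.18 in treated wild type, within 0.25 of each other, and at 10.56, 11.10, 10.52 and 10.75 in the antibiotic group (-1.53 ± 0.19, adjusted p = 0.000569). Sqle, squalene epoxidase, was at 9.59, 9.34, 9.39 and 8.86 without and 7.49, 8.21, 8.19 and 7.97 with antibiotics (-1.33 ± 0.25, adjusted p = 0.00461). Msmo1, which removes methyl groups from sterol precursors, was at 10.98, 11.52, 11.49 and 10.84 and 9.21, 10.21, 9.73 and 10.02 in the same order (-1.42 ± 0.31, adjusted p = 0.00936). None of these genes overlapped between the groups. Mvd, mevalonate diphosphate decarboxylase, went from 6.68, 5.82, 5.29 and 4.35 to 3.5, 4.31, 3.59 and 3.10 (-1.91 ± 0.48, adjusted p = 0.0179), and 3 of its antibiotic arrays were under 4. Mvd was not called without antibiotic 4 (adjusted p = 0.0509). Mvd was not called with array weights (adjusted p = 0.0783).

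The other members called lower were named after their values were seen. They were Hmgcs1 (-1.03), which makes the pathway's first committed intermediate, Pmvk (-0.98) and Idi1 (-1.09) of the isoprenoid steps, Lss (-1.10), Sc5d (-1.23), Nsdhl (-1.06) and Dhcr7 (-0.65) of the sterol steps, and the sterol carrier Stard4 (-0.63). The regulators themselves were not called: Srebf2, which encodes SREBP2, differed by -0.18 (adjusted p = 0.625), its escort Scap by -0.06 (0.738) and Insig2 by -0.09 (0.834). The mean level of the 22 genes was 9.91, 9.86, 9.93 and 9.5 on the treated arrays and 8.76, 9.17, 8.96 and 9.10 on the antibiotic arrays, with no overlap, against 10.29, 10.49 and 10.68 in untreated liver and 9.80, 9.61, 9.02 and 9.69 in the treated mutant. Against untreated liver, 20 of 22 were lower in the antibiotic group (24.3% of all genes) and 12 in treated wild type (26.7%), in comparisons that share the untreated arrays. Centring the arrays moved the median of all genes from 0.11 to -0.07 in the former and from 0.10 to -0.12 in the latter. It turned the split of called genes from 3269 higher and 2308 lower to 2511 and 3135 in the antibiotic group, and from 3408 and 2530 to 2594 and 3520 in treated wild type. Hmgcs1 was not called without treated 1, 2 or 3, or antibiotic 1, 3 or 4 (adjusted p up to 0.113), nor was Nsdhl without treated 1 or 3, or antibiotic 1 (up to 0.0805). Dhcr7 was not called without antibiotic 3 (adjusted p = 0.0514). Hmgcs1 was not called with the arrays centred (adjusted p = 0.0513), nor was Hmgcs1 without the detection rule (0.0569). Hmgcs1 was not called with array weights (adjusted p = 0.0785), nor was Lss with a gene's probe sets averaged (0.106).

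Genes of lipogenesis and lipid uptake moved both ways. Among 39 of them, 6 rose and 6 fell, with a median of 0.08, where 4.95% of all genes were higher and 9.01% lower. The falling ones make fatty acids. Thrsp, a lipogenic coactivator, fell by 2.42 ± 0.65 (adjusted p = 0.0232), Fasn, fatty acid synthase, by 1.63 ± 0.34 (adjusted p = 0.00785) and the desaturase Scd2 by 1.62 ± 0.23 (adjusted p = 0.00115). Fasn was at 11.15, 9.65, 9.43 and 9.78 in treated wild type and at 7.98, 8.60, 8.14 and 8.74 with antibiotics, and the groups did not overlap. Acly (-1.0) and Acss2 (-0.74), which supply acetyl-CoA, and the elongase Elovl6 (-0.85) were also lower, named here after their values were seen. The rising members included Plin5 (1.25 ± 0.25, adjusted p = 0.00654), which coats lipid droplets beside mitochondria, and, named after their values were seen, the lipase Pnpla2 (0.98), Dgat1 (0.73), Pklr (0.80), the oxysterol receptor Nr1h3 (0.55) and Cideb (0.42). Srebf1, the lipogenic SREBP gene, differed by -0.03 (adjusted p = 0.943), Scd1 by -0.09 (0.79) and the fatty acid transporter Cd36 by -0.74 (0.434). The count of rising members was 3 without treated replicate 4, antibiotic replicate 1 or antibiotic replicate 3, and in a fit of the 8 arrays alone. Thrsp was not called without treated 1, or antibiotic 1 or 3 (adjusted p up to 0.0723), nor was Elovl6 without treated 1, 2 or 4, or antibiotic 3 or 4 (up to 0.113). Dgat1 was not called without treated 2, 3 or 4, or antibiotic 1 or 3 (adjusted p up to 0.0866), nor was Nr1h3 without treated 1, 3 or 4, or antibiotic 1, 3 or 4 (up to 0.107). Cideb was not called without treated 1, 2 or 4, or antibiotic 1, 3 or 4 (adjusted p up to 0.124). Elovl6 was not called with the arrays centred (adjusted p = 0.0532), nor were Elovl6 and Cideb without the detection rule (up to 0.0606). Elovl6 and Pklr were not called with a gene's probe sets averaged (adjusted p up to 0.0958), nor were Elovl6, Dgat1, Nr1h3 and Cideb in a fit of the 8 arrays alone (up to 0.0692).

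Glucose genes moved in 1 direction where they moved. Of 22, 4 rose (G6pc, Pklr, Slc37a4 and Pck1) and 0 fell, where 4.95% of all genes were higher and 9.01% lower. Slc37a4, the transporter that feeds G6pc, rose by 0.63 ± 0.16 (adjusted p = 0.0194), and Pck1, the gluconeogenic phosphoenolpyruvate carboxykinase, by 0.48 ± 0.14, adjusted p = 0.0333. Pklr, liver pyruvate kinase, rose by 0.80 ± 0.18 (adjusted p = 0.0106). The coactivator Ppargc1a differed by 0.89 (adjusted p = 0.135) and Fbp1 by 0.01 (0.963). Only 2 members were called without treated replicate 2, treated replicate 3 or antibiotic replicate 1. Slc37a4 was not called without treated 2 or 3, or antibiotic 1 (adjusted p up to 0.0565), nor was Pck1 without treated 2, 3 or 4, or antibiotic 1, 2 or 4 (up to 0.0968). Pck1 was not called in a fit of the 8 arrays alone (adjusted p = 0.0915).

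Drug-metabolising P450s and their regulators moved both ways: of 29 genes, 6 rose and 6 fell. Of all genes, 4.95% were higher and 9.01% lower. Cyp3a11, the main drug-inducible P450 of mouse liver and a target of the bile acid and drug sensor PXR, was at 13.80, 13.44, 13.62 and 13.68 without antibiotics and 11.70, 12.48, 10.61 and 12.07 with them (-1.92 ± 0.29, adjusted p = 0.00169). Cyp2c55, expressed in gut as well as liver, was at 8.62, 7.26, 7.20 and 7.91 and 4.2, 5.44, 4.82 and 4.99 (-2.88 ± 0.43, adjusted p = 0.00152), and Cyp1a1, the marker target of the aryl hydrocarbon receptor, at 6.26, 7.59, 4.53 and 7.33 and 4.03, 3.95, 3.44 and 3.27 (-2.76 ± 0.75, adjusted p = 0.0255). The antibiotic arrays lay below the treated arrays for all of these genes, and 3 of the 4 were under 4 for Cyp1a1. Cyp2b10, a target of the receptor CAR, was at 7.52, 7.40, 8.14 and 9.07 and 5.36, 6.69, 5.78 and 7.22. All its antibiotic arrays were lower, but it was not called (-1.77, adjusted p = 0.114). It was called in a fit of the 8 arrays alone (adjusted p = 0.0439) and with array weights (0.0298). The receptor genes were among those that rose: Nr1i2, which encodes PXR, by 1.32 and Nr1i3, which encodes CAR, by 1.13. Cyp1a1 was not called without treated 2 or 4, or antibiotic 3 or 4 (adjusted p up to 0.0771), nor was Nr1i3 without treated 1, 2, 3 or 4, or antibiotic 3 or 4 (up to 0.102).

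Also among those that rose were Cyp2c37 (1.70 ± 0.40, adjusted p = 0.0138) and Cyp2c29 (1.37 ± 0.34, adjusted p = 0.0168), both expressed around the central vein where CCl4 injures. Cyp2e1, the P450 that activates CCl4 itself, was at 11.11, 11.91, 10.27 and 10.80 in treated wild type and 11.14, 11.31, 11.83 and 12.33 in the antibiotic group. Its groups overlapped, and the difference of 0.63 had a 95% interval from -0.06 to 1.32 (adjusted p = 0.21). Over 24 genes of the pericentral zone, 4 rose, Nr1i3, Tbx3 (1.66) and the Cyp2c genes, and 1 fell (Cyp1a2, -0.86). Glul, glutamine synthetase of the innermost layer, differed by 0.25 (adjusted p = 0.395). Over 24 periportal genes 3 rose (G6pc, Asl, 0.59, and Pck1) and 1 fell (Ctsc, -0.58). Of all genes, 4.95% were higher and 9.01% lower. Cyp2c and Cyp3a genes have near-identical copies, so which member changed is uncertain. The count of falling P450 genes was 3 without treated replicate 2 or antibiotic replicate 3. Cyp2c29 was not called without antibiotic 1 (adjusted p = 0.0511), nor was Cyp1a2 without treated 1, 2 or 4, or antibiotic 1, 2 or 3 (up to 0.112). Asl was not called without treated 2 or 3, or antibiotic 1 or 4 (adjusted p up to 0.0938), nor was Ctsc without treated 1 or 3, or antibiotic 1 or 3 (up to 0.0708). Tbx3, Cyp1a2 and Asl were not called in a fit of the 8 arrays alone (adjusted p up to 0.0974), nor was Cyp1a2 without the detection rule (0.0552). Asl was not called with array weights (adjusted p = 0.0683), nor was Ctsc with a gene's probe sets averaged (0.171).

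Genes that growth hormone keeps male-biased were among those that fell. Of 25 growth hormone and sex-biased genes 3 rose and 6 fell, where 4.95% of all genes were higher and 9.01% lower. Slco1a1, a male-biased organic anion transporter, fell by 2.36 ± 0.62 (adjusted p = 0.0216), Cyp7b1, an oxysterol hydroxylase, by 1.61 ± 0.26 (adjusted p = 0.00229), and Ugt2b38, a glucuronosyltransferase, by 2.88 ± 0.89 (adjusted p = 0.0445). Bcl6, a repressor that is higher in male liver and holds down female-biased genes, fell by 2.10 ± 0.48 (adjusted p = 0.0122). Cyp7b1 was at 11.83, 12.14, 12.39 and 12.27 in treated wild type and 10.0, 10.81, 10.31 and 11.08 in the antibiotic group. Hsd3b5 (-1.76) and Susd4 (-1.47) were the others, named after their values were seen. Rising members were Acot3, Igfbp3 (1.20) and Igfbp2 (1.09), while Igf1, the main growth hormone target in serum, differed by -0.06 (adjusted p = 0.743). Only 3 members were called lower without treated replicate 3 or antibiotic replicate 1. Slco1a1 was not called without treated 3 or antibiotic 1 (adjusted p up to 0.0682), nor was Ugt2b38 without treated 1, 2, 3 or 4, or antibiotic 1, 2 or 4 (up to 0.119). Hsd3b5 was not called without treated 2, 3 or 4, or antibiotic 1 (adjusted p up to 0.0921), nor was Igfbp3 without treated 1, 3 or 4, or antibiotic 1, 2, 3 or 4 (up to 0.123). Ugt2b38 was not called with values under 4 set to 4 (adjusted p = 0.0513), nor were Ugt2b38, Hsd3b5 and Igfbp3 without the detection rule (up to 0.0676). Hsd3b5 was not called in a fit of the 8 arrays alone (adjusted p = 0.0795), nor was Igfbp3 with array weights (0.104).

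For bile acids, 3 of 32 genes rose and 3 fell, where 4.95% of all genes were higher and 9.01% lower. Nr0b2 and the sterol exporters Abcg8 (1.42 ± 0.34, adjusted p = 0.0139) and Abcg5 (0.56) rose, and Slco1a1, Cyp7b1 and Abcc2 (-0.5) fell. Cyp7a1, whose hydroxylase limits how fast bile acids are made, was at 8.42, 9.39, 8.15 and 9.96 without and 10.24, 9.0, 9.29 and 8.70 with antibiotics, a wide spread in both groups (difference 0.33, adjusted p = 0.726). Cyp8b1, which sets the cholic acid share, differed by -0.75 (0.428). Abcg5 was not called without treated 2, 3 or 4, or antibiotic 1, 3 or 4 (adjusted p up to 0.0906). Abcg5 was not called in a fit of the 8 arrays alone (adjusted p = 0.066).

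Conjugation and antioxidant genes were called at about the rate of all genes (4.95% higher and 9.01% lower). Of 45, 2 rose, Fmo2 and the carbonyl reductase Cbr1 (0.86 ± 0.23, adjusted p = 0.0218), and 4 fell, the carboxylesterase Ces2a (-1.06 ± 0.20, adjusted p = 0.00434), the haem oxygenase Hmox1 (-0.97 ± 0.21, adjusted p = 0.00932), the exporter Abcc2 and Nfe2l2 (-0.48 ± 0.13, adjusted p = 0.0296), which encodes the oxidative stress factor NRF2. Nqo1, an NRF2 target, differed by 0.27 (adjusted p = 0.609). Cbr1 was not called without treated 3, or antibiotic 1 or 3 (adjusted p up to 0.0673), nor was Nfe2l2 without treated 2, 3 or 4, or antibiotic 1 (up to 0.0899). Nfe2l2 was not called with a gene's probe sets averaged (adjusted p = 0.443), nor was Nfe2l2 in a fit of the 8 arrays alone (0.0501).

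Cell division genes fell almost throughout. Of 53 measured mitosis genes 49 were called lower and 0 higher, where 9.01% of all genes were lower and 4.95% higher. The list's median was -1.5, and all 53 differences were below 0, where 46.6% of all genes differed upwards. Of the called ones, 7 met the detection rule only through the treated arrays. The members not called were Ccnb2 (-2.18), Cdca3 (-1.97), Nek2 (-1.24) and Spc25 (-0.56). Mitotic genes often carry a cell cycle genes homology region (CHR, TTTGAA) near CCAAT boxes. Some called members with 1 window that holds both are shown, again 250 bases before the RefSeq start in GRCm38.p6. These members are not those with the largest falls of the list. CCAAT and the CHR, read on both strands, are in capitals.
Kif11 chr19:37376132-37376381 (plus strand): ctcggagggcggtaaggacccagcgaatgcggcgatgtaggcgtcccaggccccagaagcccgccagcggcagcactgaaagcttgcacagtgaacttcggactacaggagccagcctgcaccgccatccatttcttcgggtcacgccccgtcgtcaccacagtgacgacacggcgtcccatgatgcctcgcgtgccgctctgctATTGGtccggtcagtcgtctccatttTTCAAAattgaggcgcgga
Mki67 chr7:135716380-135716629 (minus strand): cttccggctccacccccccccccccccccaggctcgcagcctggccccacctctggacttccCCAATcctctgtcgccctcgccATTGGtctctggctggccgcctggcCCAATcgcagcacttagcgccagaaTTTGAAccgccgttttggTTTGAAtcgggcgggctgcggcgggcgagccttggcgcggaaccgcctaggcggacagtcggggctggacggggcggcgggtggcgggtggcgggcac
Cdc20 chr4:118437344-118437593 (minus strand): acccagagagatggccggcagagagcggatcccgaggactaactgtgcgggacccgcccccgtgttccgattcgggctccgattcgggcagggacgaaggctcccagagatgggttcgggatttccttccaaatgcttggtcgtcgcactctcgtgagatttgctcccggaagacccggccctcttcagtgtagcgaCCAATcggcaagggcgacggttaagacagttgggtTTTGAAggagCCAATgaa

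Over the mitosis list, 36 of 48 windows held CCAAT (75.0%, 44 of 53 genes matched) and 16 held TTTGAA (33.3%), both strands read. TTTGAA stood in 10.7% of the windows of genes tested, in 16% of all windows and in 1 of the 24 cholesterol windows. In Mki67 the letters TTTGAA occur at 2 places after the last CCAAT, as the capitals show.

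Mki67, which encodes the proliferation antigen Ki-67, was at 11.16, 10.84, 11.72 and 11.29 in treated wild type and at 8.39, 10.60, 9.27 and 10.37 in the antibiotic group (-1.59 ± 0.41, adjusted p = 0.0203). In untreated livers it was at 2.59, 2.66 and 2.67, so every antibiotic array was far above every untreated one. The cytokinesis kinesin Kif20a was at 7.93, 8.24, 9.25 and 8.89 without and 3.76, 6.84, 5.05 and 7.40 with antibiotics (-2.82 ± 0.66, adjusted p = 0.0126). The 4 antibiotic arrays differed among themselves by more than the treated ones, replicate 1 being lowest and replicates 2 and 4 highest. Aurkb, the kinase of the chromosomal passenger complex, repeated that order (8.64, 8.56, 8.86 and 8.59 without, 4.19, 7.42, 6.28 and 6.71 with antibiotics, -2.51 ± 0.48, adjusted p = 0.00542). Top2a, which untangles sister chromatids, was at 10.70, 10.36, 10.86 and 10.78 and 7.90, 10.11, 9.12 and 9.96 (-1.40 ± 0.35, adjusted p = 0.0182). Mki67 was not called without treated 3, or antibiotic 1 or 3 (adjusted p up to 0.0558). Mki67 and Top2a were not called in a fit of the 8 arrays alone (adjusted p up to 0.0685).

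Other spindle and cytokinesis genes among the largest or surest falls were Hmmr (-2.69 ± 0.67, adjusted p = 0.0167), Nusap1 (-2.59 ± 0.79, adjusted p = 0.0436), the contractile ring scaffold Anln (-2.48 ± 0.43, adjusted p = 0.00325), and the kinesins Kif23 (-2.20 ± 0.25, adjusted p = 0.000401) and Kif18a (-2.36 ± 0.26, adjusted p = 0.0004). Trim59, a ubiquitin ligase, was also among the 12 largest falls without overlap (-2.39 ± 0.5, adjusted p = 0.00785). Without treated replicate 3 the list's count was 30, and in a fit of these 8 arrays alone it was 29. All 53 genes were higher than in untreated liver in both treated groups, with 34.5% of all genes higher in the antibiotic group and 35.9% in treated wild type. The list's mean in untreated liver was 3.13, 3.25 and 3.07. Members under 4 there could meet the detection rule only through arrays given DEN and CCl4, which favoured this count. Nusap1 was not called without treated 1, 2, 3 or 4, or antibiotic 1 or 3 (adjusted p up to 0.098). Kif23 met the detection rule only when the treated arrays were counted. Nusap1 was not called without the detection rule (adjusted p = 0.0605), nor was Nusap1 in a fit of the 8 arrays alone (0.0981).

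Fewer genes of DNA replication were called. Of 46, 15 fell and 0 rose, with a median of -0.60, where 9.01% of all genes were lower and 4.95% higher. Pola1, the catalytic subunit of DNA polymerase alpha, fell by 1.08 ± 0.27 (adjusted p = 0.0171), the replication licensing ligase adaptor Dtl by 1.08 ± 0.28 (adjusted p = 0.0196), Rrm2 of ribonucleotide reductase by 1.0 ± 0.24 (adjusted p = 0.0159) and Gins2 of the replicative helicase by 0.96 ± 0.25 (adjusted p = 0.0212). The helicase subunits Mcm2 (-0.23), Mcm3 (-0.35), Mcm5 (-0.59) and Mcm6 (-0.61) were not called. Rrm2 was at 13.17, 12.92, 12.90 and 12.97 in treated wild type and at 11.30, 12.70, 11.88 and 12.09 with antibiotics. Antibiotic replicate 2 lay just below the treated arrays on this list: the mean of the 46 genes was 9.19, 9.23, 9.14 and 9.20 on the treated arrays and 8.09, 9.10, 8.68 and 8.59 on the antibiotic ones. In all, 28 members were called without antibiotic replicate 2 and 4 without antibiotic replicate 1, and 8 to 9 without treated replicate 2, 3 or 4. With array weights the count was 25, and in a fit of the 8 arrays alone 9. Dtl was not called without treated 2 or antibiotic 1 (adjusted p up to 0.0622), nor was Gins2 without treated 3 (0.0526). Dtl was not called with a gene's probe sets averaged (adjusted p = 0.0818), nor was Gins2 in a fit of the 8 arrays alone (0.0608).

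Regulators upstream of the cycle were mostly not called, where 4.95% of all genes were higher and 9.01% lower. Ccnd1, cyclin D1, which growth factors induce, differed by -0.13 (adjusted p = 0.78), and Cdkn1a, the p21 inhibitor that p53 induces after DNA damage, by 0.20 (0.741). Among 23 p53 targets 1 rose (Btg2, 1.31) and 2 fell: Gadd45a (-1.76 ± 0.34, adjusted p = 0.00563) and Psrc1 (-1.31), a spindle gene. Of 17 growth factors and EGF receptor genes 2 rose and 1 fell: Hbegf, a ligand of the EGF receptor, rose by 1.61 ± 0.37 (adjusted p = 0.0112) and Vegfa, which acts on vessels, by 0.41 ± 0.12 (adjusted p = 0.0311), while Egfr, the receptor, fell by 0.88 ± 0.18 (adjusted p = 0.00768). Hgf, a mitogen for hepatocytes from the liver's non-parenchymal cells, differed by -0.17 with a 95% interval from -0.66 to 0.31 (adjusted p = 0.671). Of 13 oncofetal and liver tumour markers 1 fell (Scd2) and 0 rose. Afp, the fetal albumin that regenerating and malignant hepatocytes make, was at 12.35, 13.17, 11.47 and 12.20 and 12.51, 12.72, 11.86 and 12.35 (0.06, adjusted p = 0.926). Vegfa was not called without treated 2, 3 or 4, or antibiotic 1 or 3 (adjusted p up to 0.0942). Vegfa was not called in a fit of the 8 arrays alone (adjusted p = 0.08).

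**Figure D3:**
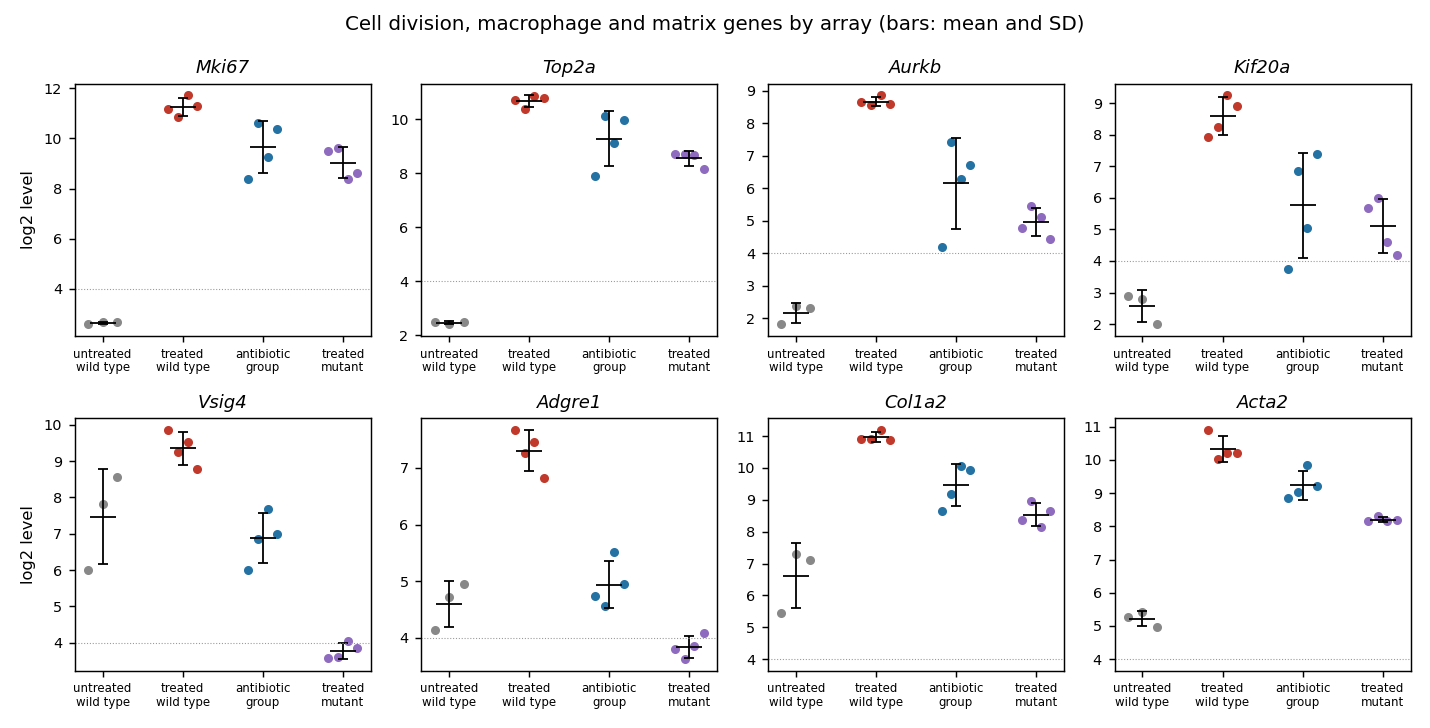
Log2 levels of cell division (Mki67, Top2a, Aurkb, Kif20a), macrophage (Vsig4, Adgre1) and stellate cell (Col1a2, Acta2) genes on each array of the 4 groups; bars give the mean and SD and the dotted line marks 4. Antibiotic points lie below all treated wild-type points in every panel and above the untreated points for the cell division and stellate cell genes.

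Macrophage genes fell as well. Of 24 Kupffer cell and macrophage markers, 18 were lower and 0 higher, with a median of -1.24, against 9.01% of all genes lower and 4.95% higher. Vsig4, a complement receptor of Kupffer cells, was at 9.87, 9.27, 9.52 and 8.78 in treated wild type and 6.0, 6.86, 7.69 and 7.0 in the antibiotic group (-2.47 ± 0.45, adjusted p = 0.00392). Adgre1, an adhesion receptor used to stain macrophages, was at 7.67, 7.27, 7.45 and 6.83 and 4.74, 4.56, 5.52 and 4.95 (-2.36 ± 0.23, adjusted p = 0.000137). Both genes separated the groups without overlap, with antibiotic replicate 3 the nearest to the treated arrays. Clec4f, the lectin used to define Kupffer cells, was at 7.96, 7.04, 7.35 and 6.56 and 5.38, 5.07, 6.11 and 5.67 (-1.67 ± 0.43, adjusted p = 0.0201). Clec4f was not called without treated 1 or antibiotic 1 (adjusted p up to 0.0565).

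Further markers that fell were the scavenger protein gene Cd5l (-1.92 ± 0.26, adjusted p = 0.000992), the immune adaptor Tyrobp (-2.13 ± 0.38, adjusted p = 0.00348) and the cathepsin Ctss (-1.11 ± 0.20, adjusted p = 0.00392), also the 1 gene called of 5 that present antigen on MHC class II. Members not called were Lyz2 (-1.39), Marco (-1.04), Mrc1 (-0.44) and Fcgr2b (-0.32), and those above 0 were Cd14 (0.75, adjusted p = 0.0537) and Cd68 (0.86, 0.056). Cd14, the lipopolysaccharide coreceptor, was at 8.15, 7.90, 7.64 and 7.45 without and 8.14, 8.12, 9.04 and 8.86 with antibiotics, against 2.63, 2.61 and 2.49 in untreated liver. With the arrays centred or quantile normalised, Cd14 was called higher (adjusted p = 0.0396 and 0.0428), and so was Cd68, a lysosomal protein of macrophages (0.0427 and 0.0484). The mean of the 24 markers was 9.44, 9.0, 9.28 and 8.92 on the treated arrays, 7.77, 7.74, 8.52 and 8.15 on the antibiotic arrays and 5.86, 6.62 and 6.94 on the untreated ones.

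Genes of the monocytes and macrophages that enter injured liver followed in part. Of 14, 8 fell and 1 rose, with a median of -0.94, against 9.01% of all genes lower and 4.95% higher. Ccr2, the receptor that brings monocytes out of the blood, fell by 1.24 ± 0.22 (adjusted p = 0.0038), Anxa1, annexin A1, by 1.37 ± 0.29 (adjusted p = 0.00811) and Cd52 by 1.40 ± 0.37 (adjusted p = 0.0209). S100a6, a calcium-binding protein also made by other injured cells, rose by 1.26 ± 0.26 (adjusted p = 0.00781). Lgals3 (0.68), Cd9 (0.5) and Gpnmb (-1.20), genes of lipid- and scar-associated macrophages, were not called. Without antibiotic replicate 1, 5 members were called lower, and 5 of those that reached 6 on 3 arrays. Of the 10 genes with the smallest adjusted p over all genes, Gpr65, an acid-sensing receptor of leukocytes, Ms4a6d and Lcp2, an adaptor of blood cells, belong with Adgre1 to genes expressed in such cells. Gpr65 was at 6.17, 6.19, 5.95 and 6.24 and 4.07, 4.34, 4.36 and 4.48 (-1.82 ± 0.20, adjusted p = 0.0004), and Ms4a6d (-2.11 ± 0.24, adjusted p = 0.000401) and Lcp2 (-1.63 ± 0.19, adjusted p = 0.000427) were also lower. Cd52 was not called without treated 2 or antibiotic 1 (adjusted p up to 0.0666). Lcp2 met the detection rule only when the treated arrays were counted. Cd52 was not called in a fit of the 8 arrays alone (adjusted p = 0.0738).

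Markers of other blood cells were mostly too low to measure, and their part in the results was not tested. Of 16 neutrophil genes 3 were kept, and the neutrophil and monocyte genes S100a8 (-2.32 ± 0.31, adjusted p = 0.000839, at least 3.58-fold lower) and S100a9 (-1.62 ± 0.27, adjusted p = 0.00275, at least 1.51-fold lower) fell. S100a8 was at 6.52, 5.11, 5.80 and 5.93 without and 2.95, 3.42, 3.90 and 3.83 with antibiotics, the latter all under 4. The summed level of the 3 kept neutrophil genes ran from 13.53 to 13.94 on the treated and from 13.72 to 14.11 on the antibiotic arrays, mainly that of Hp, the haptoglobin gene, while their mean log2 level, with each gene counted equally, was 8.46, 7.49, 8.14 and 8.12 on the treated and 6.46, 6.65, 6.97 and 7.09 on the antibiotic arrays, without overlap. Another 10 of the listed genes were on the array and did not meet the detection rule. Of the T and NK cell markers 2 of 21 were kept and 0 called (summed level 5.25 to 5.69 against 5.25 to 6.13). Of the B and plasma cell markers 3 of 16 were kept (summed level 12.44 to 12.79 against 12.05 to 12.74), and Bank1 (-1.80 ± 0.37, adjusted p = 0.00709, at least 1.51-fold lower) fell. Among gut and kidney markers only Lgals4, a galectin of gut epithelium, was kept, and it was higher with antibiotics (3.39, 4.64, 5.01 and 4.16 without, 6.31, 5.62, 6.29 and 6.39 with, 1.85 ± 0.39, adjusted p = 0.00792). Of 17 pancreas markers 1 was kept, of 10 adipose markers 2 and of the erythroid markers 4, with 0 called. S100a8, S100a9 and Bank1 met the detection rule only when the treated arrays were counted. Bank1 was not called with values under 4 set to 4 (adjusted p = 0.259).

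Stellate cell and matrix genes fell in part. Of 35, 17 were lower and 0 higher, with a median of -0.55, where 9.01% of all genes were lower and 4.95% higher. Of the called ones, 3 met the detection rule only through the treated arrays. Col1a2, the second chain of type I collagen, was at 10.92, 10.90, 11.20 and 10.88 in treated wild type and 8.66, 9.20, 10.06 and 9.94 in the antibiotic group (-1.51 ± 0.37, adjusted p = 0.0165). Acta2, the contractile actin that stellate cells make once activated, was at 10.91, 10.03, 10.20 and 10.21 and 8.84, 9.05, 9.84 and 9.23 (-1.10 ± 0.21, adjusted p = 0.00528). The groups did not overlap, and antibiotic replicate 3 was again nearest to the treated arrays for Acta2. Col5a2 (-2.0 ± 0.27, adjusted p = 0.000992), Col6a3 (-1.71 ± 0.31, adjusted p = 0.00392) and the collagenase Mmp13 (-2.06 ± 0.34, adjusted p = 0.00262, at least 1.82-fold lower) fell further, as did Hapln1 (-2.53 ± 0.55, adjusted p = 0.00941), which links hyaluronan to proteoglycans, and Timp1 (-1.43 ± 0.40, adjusted p = 0.0271), an inhibitor of such enzymes, and Col1a1 (-1.35 ± 0.41, adjusted p = 0.0428) also fell. Members that were not called include Lrat (0.44), the retinol-storing enzyme of stellate cells, Reln (0.13), Dcn (0.07), Fn1 (-0.02), and Ccn2 (0.88), the connective tissue growth factor. Col1a2 was not called without antibiotic 1 (adjusted p = 0.0534), nor was Timp1 without treated 1 or 3, or antibiotic 1 or 2 (up to 0.0844). Col1a1 was not called without treated 2, 3 or 4, or antibiotic 1, 2 or 4 (adjusted p up to 0.126). Mmp13 and Timp1 of the list, and Hapln1 outside it, met the detection rule only when the treated arrays were counted. Col1a1 was not called without the detection rule (adjusted p = 0.0589).

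The count of matrix genes was 9 without antibiotic replicate 1 and 11 without treated replicate 3. Endothelial genes were mostly not called, where 4.95% of all genes were higher and 9.01% lower. Of 22 sinusoidal endothelial genes 1 fell (Tek, the angiopoietin receptor, -0.75 ± 0.17, adjusted p = 0.0124) and 0 rose, with a median of -0.11. The scavenger receptors Stab1 (0.42) and Stab2 (0.10), Lyve1 (-0.37) and Kdr (0.06) were not called.

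**Figure D4:**
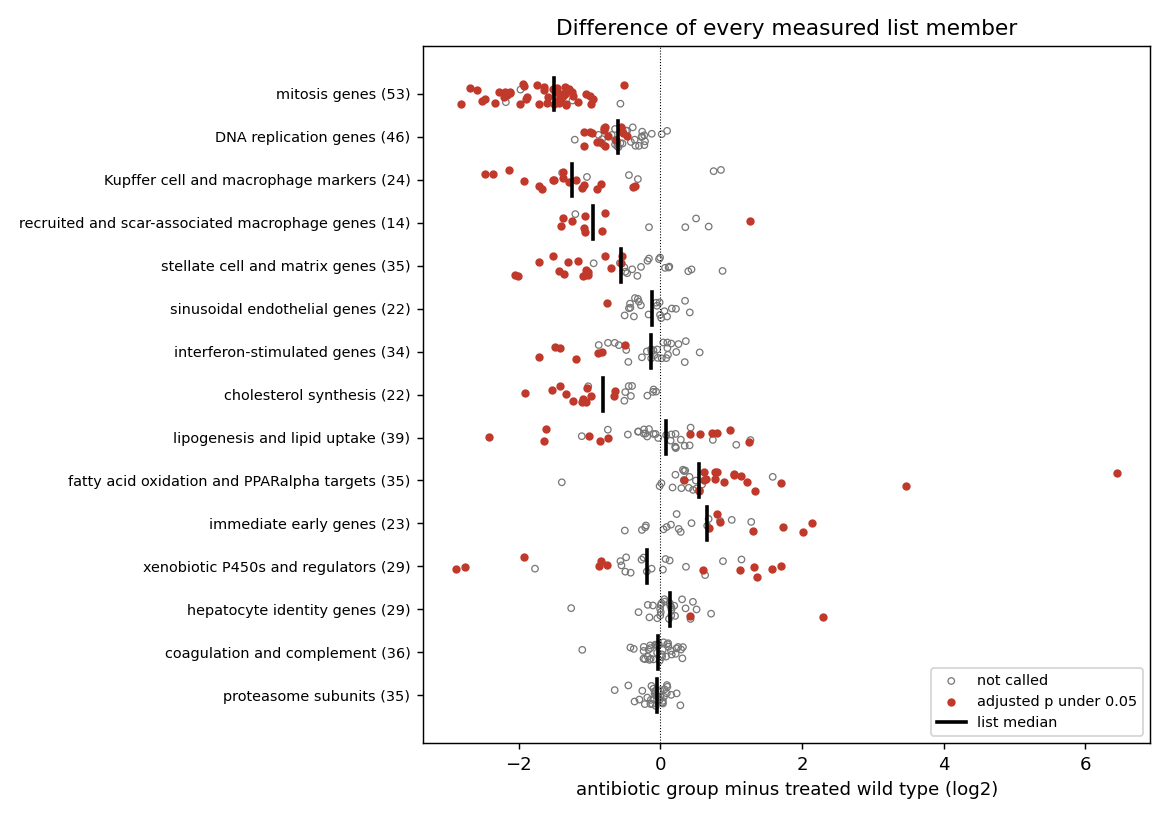
Differences of every measured member of 15 gene lists, antibiotic group minus treated wild type on the log2 scale (horizontal axis), with the number of members in brackets; red points passed an adjusted p under 0.05 and the bar is the list's median. Mitosis, macrophage and cholesterol genes lie mostly left of 0 and fatty acid oxidation genes mostly right of it, while coagulation and proteasome genes centre on 0.

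The lipopolysaccharide pathway itself gave 1 rise and 1 fall among 16 measured recognition and TLR signalling genes, shares close to those of all genes (4.95% higher and 9.01% lower). Lbp, the serum protein that hands lipopolysaccharide to Cd14, rose (1.13 ± 0.31, adjusted p = 0.0253) and Tlr1, a partner of Tlr2, fell (-1.24 ± 0.21, adjusted p = 0.00274, at least 1.42-fold lower). Myd88, the shared adaptor, differed by 0.25 and Ly96, which encodes the MD-2 partner of Tlr4, by -0.49. Of 13 NF-kB subunits, feedback and target genes, 0 were called. The feedback inhibitor Nfkbia differed by 0.25 (adjusted p = 0.152) and Icam1 by -0.04 (0.92). With a gene's probe sets averaged, Nfkbia was called (adjusted p = 0.0236). Lbp was not called without treated 1, 2 or 4, or antibiotic 3 or 4 (adjusted p up to 0.0703). Tlr1 met the detection rule only when the treated arrays were counted. Lbp was not called in a fit of the 8 arrays alone (adjusted p = 0.0573).

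Among 12 chemokines 2 rose and 4 fell, where 4.95% of all genes were higher and 9.01% lower. Cxcl14 was at 7.32, 7.51, 8.08 and 7.44 in treated wild type and 4.44, 4.77, 6.0 and 5.64 with antibiotics (-2.38 ± 0.35, adjusted p = 0.00142), a separation without overlap. Ccl6 (-1.14 ± 0.27, adjusted p = 0.0144) and Cxcl16 (-0.79 ± 0.15, adjusted p = 0.0049), both macrophage products, fell. Cxcl2, which attracts neutrophils, was at 2.90, 2.33, 2.5 and 2.80 without and 4.98, 2.86, 4.30 and 4.73 with antibiotics (1.58 ± 0.35, adjusted p = 0.00983, at least 1.16-fold higher), with antibiotic replicate 2 within the treated range. Of 34 interferon-stimulated genes, 7 fell and 0 rose, led by Ifi27l2a (-1.72 ± 0.23, adjusted p = 0.000861), Oas1a (-1.48 ± 0.28, adjusted p = 0.00539) and Ifit2 (-1.41 ± 0.35, adjusted p = 0.0172), with a median of -0.13. Irf7, a master regulator of interferon genes, fell by 1.19 ± 0.29 (adjusted p = 0.0156), while Stat2 (0.26), Usp18 (0.36) and Ifit1 (0.11) were not called. The interferon count was 4 without antibiotic replicate 1, treated replicate 2 or treated replicate 4, and 3 in a fit of the 8 arrays alone. Of the 7 called, 1 met the detection rule only through the treated arrays. The gene with the smallest adjusted p of all was Gbp8, a guanylate-binding protein, at 5.26, 5.06, 5.15 and 5.02 without and 2.97, 3.18, 3.59 and 3.18 with antibiotics (-1.89 ± 0.16, adjusted p = 5.87e-05, at least 2.17-fold lower). Others of the 10 smallest were Wls, the carrier that lets cells secrete Wnt proteins (-1.53 ± 0.15, adjusted p = 0.000137), and Smoc1, a secreted matrix protein that rose (0.94 ± 0.11, adjusted p = 0.000427). Ifit2 was not called without treated 2 or antibiotic 1 (adjusted p up to 0.0554), nor was Irf7 without treated 4 (0.0517). Cxcl2 met the detection rule only when the antibiotic arrays were counted. Gbp8 met the detection rule only when the treated arrays were counted. Ifit2 and Irf7 were not called in a fit of the 8 arrays alone (adjusted p up to 0.0571).

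Acute-phase proteins, which hepatocytes secrete in response to Il6, were not lower as a group: of 27, 2 rose (Socs3, 0.76 ± 0.20, adjusted p = 0.0242, a feedback inhibitor of Il6 signalling, and Saa4, 0.43 ± 0.13, adjusted p = 0.0348) and 0 fell. Of all genes, 4.95% were higher and 9.01% lower. Saa1 was at 11.22, 10.25, 14.24 and 13.48 without and 10.56, 11.16, 11.88 and 13.73 with antibiotics, so it spread widely in both groups (-0.47, adjusted p = 0.777), and Lcn2 did likewise (-0.71, 0.47). Hamp, hepcidin, which Il6 and iron induce, differed by -0.01 (0.949). Socs3 was not called without treated 1 or 3, or antibiotic 2 (adjusted p up to 0.068), nor was Saa4 without treated 2, 3 or 4, or antibiotic 1, 2, 3 or 4 (up to 0.0949). Socs3 was not called with array weights (adjusted p = 0.0527), nor was Saa4 in a fit of the 8 arrays alone (0.0834).

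Immediate early genes, which cells switch on within minutes of a stimulus or stress, rose in part. Of 23, 7 rose and 0 fell, with a median of 0.66, where 4.95% of all genes were higher and 9.01% lower. Gadd45g was at 6.40, 5.12, 3.76 and 5.71 in treated wild type and 6.82, 7.51, 7.41 and 7.80 with antibiotics (2.14 ± 0.54, adjusted p = 0.0177). Dusp1, a phosphatase that switches off MAP kinases, was at 9.62, 7.95, 8.24 and 9.57 and 10.37, 10.87, 10.47 and 10.57 (1.73 ± 0.40, adjusted p = 0.0121). Ier3 was at 6.42, 6.51, 5.77 and 6.47 and 8.02, 8.27, 8.27 and 8.66 (2.01 ± 0.40, adjusted p = 0.00623), and Btg2, an antiproliferative gene, rose by 1.31 ± 0.30 (adjusted p = 0.0127). For Gadd45g, Dusp1 and Ier3 all 4 antibiotic arrays were above all 4 treated arrays. Fos (1.28, adjusted p = 0.0676), Jun (0.84, 0.209), Egr1 (0.15, 0.855) and Myc (0.44, 0.41) were not called. In a fit of the 8 arrays alone, Fos and Jun were called higher (adjusted p = 0.025 and 0.0276). Junb (0.84), Zfp36 (0.81) and Nr4a1 (0.69 ± 0.18, adjusted p = 0.0224, at least 1.19-fold higher) completed the called members and were named after their values were seen. Junb was not called without treated 1, 2, 3 or 4, or antibiotic 3 or 4 (adjusted p up to 0.102), nor was Nr4a1 without treated 2 or 3, or antibiotic 3 or 4 (up to 0.064). Nr4a1 met the detection rule only when the antibiotic arrays were counted. Nr4a1 was not called with values under 4 set to 4 (adjusted p = 0.149), nor was Nr4a1 in a fit of the 8 arrays alone (0.0542).

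Smaller stress lists gave few calls, where 4.95% of all genes were higher and 9.01% lower. Of 24 serine, one-carbon and stress response genes, 3 rose, Phgdh (1.76), which opens serine synthesis, Chac1 (1.01) and Atf5 (1.0 ± 0.20, adjusted p = 0.00709), and Mthfd2 fell (-0.91 ± 0.25, adjusted p = 0.0239). Hspa1b, an inducible Hsp70, rose (1.5 ± 0.40, adjusted p = 0.0232) and the small heat shock protein gene Cryab fell (-0.51 ± 0.15, adjusted p = 0.0363), the only 2 called among 20 heat shock genes. Of 31 endoplasmic reticulum genes Hyou1 rose (0.68 ± 0.16, adjusted p = 0.0146) and Xbp1 fell (-0.29 ± 0.09, adjusted p = 0.0414). The epithelial stress genes Sprr1a and Sprr1b rose. Sprr1a was at 8.25, 8.37, 6.77 and 7.73 without and 9.96, 9.32, 11.18 and 11.08 with antibiotics. Sprr1b was at 3.04, 2.39, 2.36 and 2.33 and 7.02, 2.81, 7.40 and 6.98 (3.52 ± 0.83, adjusted p = 0.0131, at least 4.15-fold higher), with antibiotic replicate 2 among the treated values. The other 10 of 12 cholangiocyte and epithelial stress genes were not called, Krt19 (-0.34) and Sox9 (0.29) among them. Phgdh and Hspa1b were not called without treated 2, 3 or 4, or antibiotic 1, 3 or 4 (adjusted p up to 0.129), nor was Chac1 without treated 1, 2, 3 or 4, or antibiotic 1, 3 or 4 (up to 0.123). Mthfd2 was not called without treated 1 or 3, or antibiotic 1 (adjusted p up to 0.0723), nor was Cryab without treated 1, 3 or 4, or antibiotic 1, 2 or 4 (up to 0.112). Xbp1 was not called without treated 1, 2, 3 or 4, or antibiotic 1 or 4 (adjusted p up to 0.114). Phgdh and Chac1 were not called without the detection rule (adjusted p up to 0.0631), nor were Phgdh and Xbp1 with a gene's probe sets averaged (up to 0.172). Phgdh, Hspa1b and Xbp1 were not called in a fit of the 8 arrays alone (adjusted p up to 0.101), nor were Cryab and Xbp1 with the arrays centred (up to 0.0662).

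Hepatocyte identity genes and genes of the general machinery of the cell gave 0 to 3 calls a list, where 4.95% of all genes were higher and 9.01% lower. Of 29 hepatocyte identity genes, 2 rose (Nr0b2, and Rxra, the partner of PPARalpha and other nuclear receptors, 0.41 ± 0.09, adjusted p = 0.00785) and 0 fell. Hnf4a, the master hepatocyte factor, differed by 0.01 with a 95% interval from -0.18 to 0.20, and Alb by 0.06 with an interval from -0.13 to 0.25. Among 36 coagulation and complement genes, 35 proteasome subunits and 29 ribosomal proteins, 0 were called, with medians of -0.03, -0.05 and 0.00. Of 41 respiratory chain and ATP synthase genes 2 rose, Uqcrc1 (0.43) and Cox4i1 (0.29), and of 25 tRNA synthetases 1, Farsa (0.57). Circadian genes, which vary with the hour at which a liver is taken, gave 1 rise (Hlf, 0.52) and 1 fall (Wee1, -1.01, also a cell cycle kinase) among 21, with Arntl at 0.54 (adjusted p = 0.343) and Dbp at -0.55 (0.269). Of 24 apoptosis regulators 3 fell, Bok (-0.83), Casp2 (-0.73) and Casp1 (-0.61), and of 24 iron genes 3 fell, Hmox1, Hfe (-0.41) and Slc40a1 (-0.36). Uqcrc1 was not called without treated 2 or 4, or antibiotic 1, 3 or 4 (adjusted p up to 0.0825), nor was Cox4i1 without treated 2, 3 or 4, or antibiotic 1 or 3 (up to 0.0785). Farsa and Wee1 were not called without treated 2, 3 or 4, or antibiotic 1, 3 or 4 (adjusted p up to 0.117), nor was Hlf without treated 1, or antibiotic 1 or 3 (up to 0.0844). Casp2 was not called without any 1 of the 8 arrays (adjusted p up to 0.105), nor was Casp1 without treated 1 or 3, or antibiotic 1 (up to 0.08). Hfe was not called without treated 1, 2 or 4, or antibiotic 2 or 4 (adjusted p up to 0.0891), nor was Slc40a1 without treated 1, 2, 3 or 4, or antibiotic 1, 2 or 4 (up to 0.0956). Rxra, Hlf and Hfe were not called with a gene's probe sets averaged (adjusted p up to 0.395), nor were Uqcrc1, Cox4i1, Farsa, Hlf, Wee1, Casp1, Hfe and Slc40a1 in a fit of the 8 arrays alone (up to 0.0859). Wee1 and Casp2 were not called without the detection rule (adjusted p up to 0.0635), nor were Casp2, Hfe and Slc40a1 with the arrays centred (up to 0.0589). Casp2 was not called after quantile normalisation (adjusted p = 0.0712), nor were Casp2, Casp1 and Slc40a1 with array weights (up to 0.0764).

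The antibiotic arrays were not uniform, and some gene groups parted over them. The mean of the 53 mitosis genes was 5.85, 7.82, 6.83 and 7.82 on antibiotic replicates 1 to 4, against 8.49, 8.41, 9.15 and 8.86 on the treated replicates. The matrix mean was 7.60, 7.68, 8.19 and 8.07 on the antibiotic arrays and 8.63, 8.37, 8.64 and 8.49 on the treated ones. The macrophage and matrix means were both highest on replicates 3 and 4, while replicate 2, lowest for the macrophage markers, shared the highest mitosis mean with replicate 4. Replicate 1 was lowest for mitosis, replication, matrix and cholesterol genes. On 4 arrays these orders are a description.

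**Figure D5:**
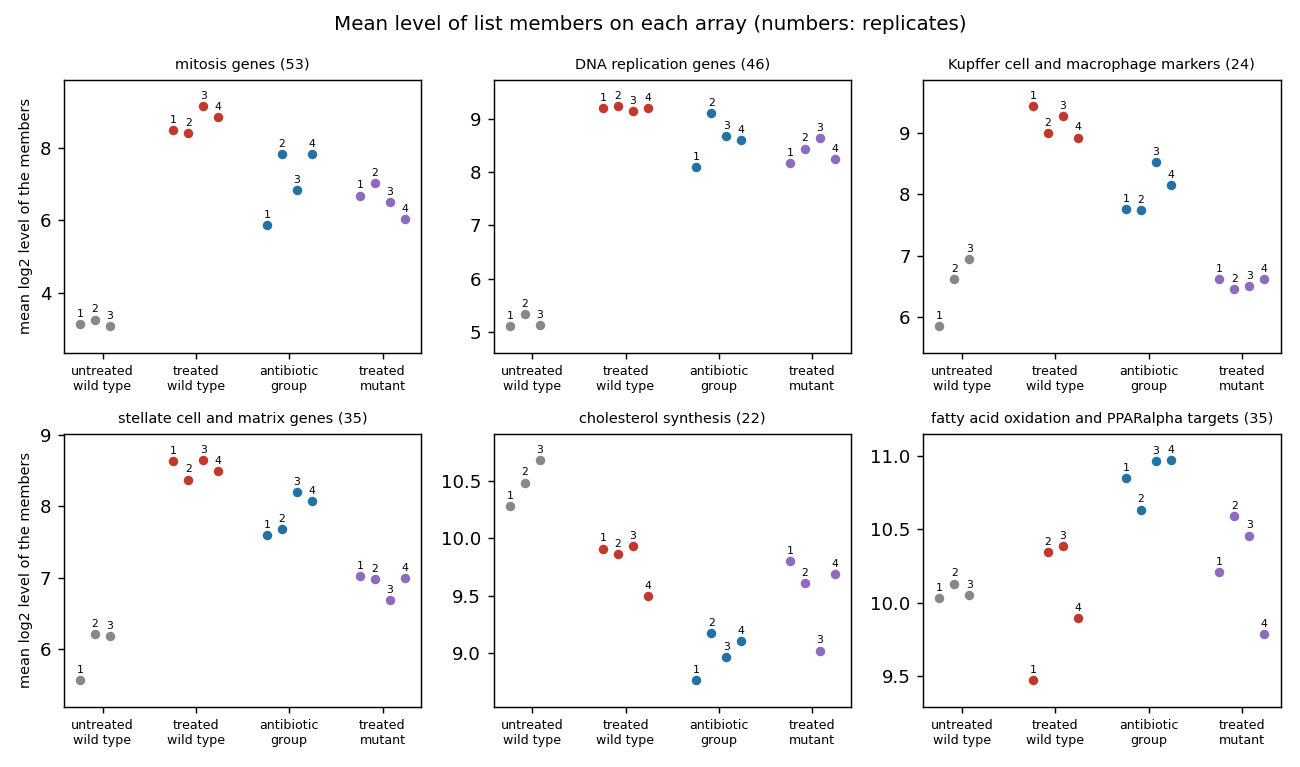
Mean log2 level of the members of 6 gene lists on each array of the 4 groups; the number beside a point is the replicate. In each panel the 4 antibiotic points lie on 1 side of the 4 treated wild-type points, and antibiotic replicate 1 is the lowest antibiotic point for mitosis, replication, matrix and cholesterol genes.

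The antibiotic group was set against the treated mutant directly, to see where the liver after antibiotics differed from a liver with defective Tlr4. In this test 6.88% of genes were higher and 5.41% lower in the antibiotic group. The C3H/HeJ mice are another substrain, so Tlr4 and other strain differences cannot be told apart. Macrophage genes were higher than in the mutant: 20 of 24 were called higher and 1 lower. Vsig4 was at 3.57, 3.59, 4.05 and 3.85 in the mutant, so the antibiotic group was higher by 3.12 ± 0.45, adjusted p = 0.000794, and Clec4f was at 2.48, 3.48, 3.17 and 3.38 (difference 2.43 ± 0.43, adjusted p = 0.00279). Of these mutant levels, 3 for Vsig4 and all 4 for Clec4f were under 4, close to background. With such values set to 4, Vsig4 was at least 7.34-fold higher in the antibiotic group. Matrix genes were higher in 23 of 35, sinusoidal endothelial genes in 20 of 22, fatty acid oxidation genes in 7 of 35 and immediate early genes in 7 of 23, with 0 lower in each of these lists.

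For cell division the test found no call between the antibiotic group and the mutant: 0 of 53 mitosis genes were higher and 0 lower. This does not show that they were alike, since the median difference was 0.55 and that of Mki67 was 0.62 (adjusted p = 0.347) with a 95% interval from -0.26 to 1.5. Cholesterol synthesis genes were lower than in the mutant in 4 of 22 and higher in 0, with Insig1 at 12.01, 11.99, 11.14 and 12.17 in the mutant (difference -1.09 ± 0.19, adjusted p = 0.00279). Cyp4a14 was higher than in the mutant by 4.44 ± 0.73, adjusted p = 0.00183 and G6pc by 3.40 ± 0.60, adjusted p = 0.00265. Of the P450s and their regulators 4 were higher and 9 lower of 29, and Cyp3a11 differed by -1.85 ± 0.29, adjusted p = 0.00128. Cd14 differed by 0.19 (adjusted p = 0.652), with an interval from -0.33 to 0.71. A fit of only these 8 arrays called 673 genes in place of 1165, and leaving out mutant replicate 1 or antibiotic replicate 3 gave 723 and 757.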

How the data were processed

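Liver RNA from 15 arrays was measured on an Affymetrix mouse array, 1 array per sample, in 4 groups taken from the labels. The deposited log2 values had been made by the authors with GCRMA, per the submitters' processing notes, with version and settings not given in the sources used here. GCRMA estimates background from probe sequence, so low values depend most on that step, and values under 4 were treated as near background.

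Of 45101 probe sets, 34945 carried 1 gene symbol, 932 several and 9160 none. Genes were kept with a probe set at 4 or more on at least 3 of the 15 arrays, each by its probe set with the highest mean. The means of the 4 groups were fitted over all 15 arrays with limma 3.58.1 (R 4.3.3), with moderated variances and Benjamini-Hochberg adjustment over 9482 genes. The fit was checked on simulated data. The number of arrays limits the precision.

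Named were the 12 highest and 12 lowest non-overlapping called genes, the 10 smallest adjusted p, up to 4 called members per list, a fixed set of liver, injury and immune genes, and members needed to complete a list, the last chosen after their values were seen. The members and lists were chosen with earlier results of these data known. Promoters came from RefSeq (GRCm38.p6). Alternatives changed the scaling, low values, filter, probe set rule, array weights, prior, samples fitted and each array. The description text of the labels, which conflicts with their titles, was not used.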

Additional observations from a re-analysis of the deposited data

Results flagged for a closer look

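Within a group of 4 arrays, 23 of 474 sets of values, over the 237 genes named, held 1 array whose gap to its nearest neighbour exceeded Dixon's 95% critical value, set against the group's range. Chance gives about 1 in 20, and these are values with no explanation tested. On antibiotic replicate 1, these values were Arntl at 3.63 (others 3.95 to 4.01) and Hsd3b5 at 6.34 (others 8.73 to 9.13). On antibiotic replicate 2, these values were Eci2 at 12.27 (others 12.46 to 12.49), Hapln1 at 6.05 (others 3.14 to 3.61), Lgals4 at 5.62 (others 6.29 to 6.39), Nrbp2 at 5.72 (others 7.17 to 7.41), Pmvk at 8.66 (others 8.04 to 8.13), Sprr1b at 2.81 (others 6.98 to 7.40) and Stab1 at 7.79 (others 8.41 to 8.5). On antibiotic replicate 3, the value was Sox9 at 4.48 (others 4.16 to 4.21). On antibiotic replicate 4, the value was Acaa1b at 13.84 (others 13.57 to 13.61). On treated replicate 1, these values were Bank1 at 6.22 (others 3.86 to 4.21), Bcl6 at 8.10 (others 9.74 to 10.04), Hlf at 7.31 (others 7.89 to 7.93), Icam1 at 7.58 (others 6.92 to 6.95), Marco at 8.52 (others 7.31 to 7.46), Sprr1b at 3.04 (others 2.33 to 2.39) and Thrsp at 12.31 (others 10.78 to 10.98). On treated replicate 2, these values were Anln at 9.55 (others 10.21 to 10.31) and Col5a2 at 8.70 (others 9.18 to 9.21). On treated replicate 3, these values were Acads at 8.86 (others 8.53 to 8.55), Col1a2 at 11.20 (others 10.88 to 10.92) and Ier3 at 5.77 (others 6.42 to 6.51).

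Probe sets that entered no gene comparison also differed between the antibiotic group and treated wild type: 226 were called in the same kind of fit. Of 1641 detected probe sets with no gene symbol in the annotation, 93 were higher and 81 lower with antibiotics, and of 492 with several symbols 20 were higher and 32 lower.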

How the results depend on the processing

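The 1323 genes called between the antibiotic group and treated wild type became 913 in a fit of these 8 arrays alone and 1953 with array weights, and lay between 1065 and 1449 under the other 7 alternatives. Leaving out 1 array gave 820 to 1624 genes. No gene called in both the reported fit and an alternative changed direction. Of the 167 genes called and named, 99 were called with each array left out in turn and 93 under every alternative as well, and of the 70 named and not called, 52 were called under none. Against the treated mutant, 1165 genes became 673 in a fit of the 8 arrays alone, and 723 to 1375 with 1 array left out. The cause of these shifts was not tested. No paired analysis was possible because the replicate numbers follow the order of deposit and the labels tie no array of one group to an array of another. The 4 arrays per group limit what can be called: over the genes not called, the median 95% interval reached 0.33 to either side of the difference. Values near 4 lie close to background, so differences of genes under it are imprecise.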
